A study of Mus musculus with 24 samples.

Results

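The kynurenine pathway enzymes described here are the products of 10 genes: Tdo2, Ido1, Afmid, Kmo, Kynu, Haao, Acmsd, Kyat1, Kyat3 and Aadat. Their probes were found through the accession that the array files give for each probe, looked up by current symbol in RefSeq. All 10 genes had a probe, 14 probes in all among 55681 on the array: 4 genes (Kmo, Kynu, Kyat1 and Kyat3) had 2 probes and 6 had 1. The array named 20660 genes in the same way.

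Transcripts were measured in fat from beside the epididymis (epididymal white adipose tissue) of 24 male C57BL/6JRcc mice, 28 or 29 weeks old at death and housed singly. All 24 ate a semi-synthetic feed with 40% of its energy as fat and a low but adequate tryptophan content of 0.115%, with nicotinamide riboside (NR, one of the forms of vitamin B3) at 30 mg per kg for the first 2 weeks. For the next 18 weeks 12 mice stayed on it (Ctrl NR) and 12 received the same feed with 0 mg of NR (No NR). All were fasted on a small ration of 0.8 g, then refed 1.8 g for 4 hours before death. Each array compared the RNA of 1 mouse, labelled with Cy5, with a common Cy3-labelled reference of the same tissue pooled from these mice, mice on other diets and 4 females. Values are log2 ratios of mouse over pool, so 0 means the level of the pool, and the number of arrays limits the precision.

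Kynurenines are made when the indole ring of tryptophan is opened, a step catalysed by TDO2, which is best known from the liver and induced by glucocorticoids, or by IDO1, which interferon gamma induces in immune and other cells. AFMID frees kynurenine from the formylated product. KMO hydroxylates it, KYNU releases the alanine side chain, and HAAO opens the second ring to a product that closes spontaneously to quinolinate, the precursor of NAD. ACMSD draws that product away from NAD synthesis, and the aminotransferases KYAT1, KYAT3 and AADAT turn kynurenine into kynurenic acid. The complete route to NAD is a property of liver above all, and most other tissues make NAD from nicotinamide, nicotinic acid or NR. With dietary vitamin B3 withdrawn, tryptophan is the remaining dietary source.

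RefSeq promoter sequences (build GRCm38.p6) were found for 8 of the 10 genes; none was used here for Ido1 and Kynu. The 250 bases before the start of Kmo, Haao and Kyat3 are shown, since these are the hydroxylase and dioxygenase of the NAD branch and the aminotransferase that varied most between mice, and since Haao and Kyat3 ran in opposite directions across mice. Capitals mark matches, on either strand, to CCAAT (the CCAAT box), TATAAA (the TATA box), GGGCGG (the GC box) or GAGGAAGT (bound by PU.1, a factor of macrophages and other myeloid cells).
Kmo, chr1:175631943-175632192, forward strand: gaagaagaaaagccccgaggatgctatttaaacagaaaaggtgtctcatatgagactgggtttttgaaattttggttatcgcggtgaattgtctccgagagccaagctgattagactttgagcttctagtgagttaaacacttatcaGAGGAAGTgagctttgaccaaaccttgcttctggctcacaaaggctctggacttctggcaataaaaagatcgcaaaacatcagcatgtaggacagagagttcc
Haao, chr17:83846791-83847040, reverse strand: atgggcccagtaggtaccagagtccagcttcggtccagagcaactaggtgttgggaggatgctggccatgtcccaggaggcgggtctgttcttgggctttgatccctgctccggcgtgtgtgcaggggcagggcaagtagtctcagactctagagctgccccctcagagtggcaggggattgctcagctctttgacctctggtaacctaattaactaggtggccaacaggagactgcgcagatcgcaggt
Kyat3, chr3:142700798-142701047, forward strand: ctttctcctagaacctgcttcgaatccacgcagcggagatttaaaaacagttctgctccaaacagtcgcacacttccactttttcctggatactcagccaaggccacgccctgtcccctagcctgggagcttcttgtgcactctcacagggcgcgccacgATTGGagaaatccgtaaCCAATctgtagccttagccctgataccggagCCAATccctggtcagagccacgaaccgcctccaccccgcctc
The Kmo window held 1 match, the PU.1 letters at 103 to 96 bases before the start, which 2.44% of 32851 promoter windows of the same length hold. The Kyat3 window held 3 CCAAT matches, at 90 to 86, 73 to 69 and 42 to 38 bases before the start, and 33.8% of all windows hold at least 1. The Haao window held none of the 4 motifs. Of the other windows, that of Tdo2 held a TATA match (12.4% of all windows) and a CCAAT match, that of Kyat1 a CCAAT and a GC match, those of Afmid and Aadat a GC match (32.7%), and that of Acmsd none. Kmo was the only one of the 8 with the PU.1 letters. A match describes letters and does not show binding. The start of Afmid lay head to head with that of Tk1, the thymidine kinase of dividing cells, whose start is on the opposite strand 95 bases downstream of it.

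A probe counts as detected where its Cy5 signal was flagged as well above the local background. Between 34.5% and 50.7% of the spots of an array passed in Cy5, and all 25 adipocyte markers and 24 of 27 macrophage markers with a probe did so on all 24 arrays, so the labelled tissue bore its defining transcripts. The first step of the pathway was not detected. Tdo2 and Ido1 were well above background on 0 of 24 arrays in Cy5 and on 0 of 24 in the Cy3 pool. Their signal over local background had a median of 3.75 units for Tdo2, with a highest value of 14, and a median of 2.5 for Ido1, with a highest value of 12.5. For comparison, 99% of detected probes exceeded a value of 13.98 to 25.5, depending on the array, with a median of 21.

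The same held for 3 enzymes further down. Both probes of Kynu, the kynureninase, were above background on no array in either channel, with highest signals of 10 and 12 units. Acmsd, the branch-point decarboxylase, had a median of 1 unit and a highest value of 15. Aadat, one of the aminotransferases, had a median of -0.75 and a highest value of 11. For these 5 genes neither diet has a measured level, so no ratio or fold is given for them: their transcripts were not detectable at the sensitivity of this array, in either diet or in the pool. Ido2, a relative of Ido1 that is no member, was also above background on 0 arrays. With a looser flag that asks only whether a signal is significantly positive, Tdo2 passed on 4 of 24 arrays, Kynu's second probe and Acmsd on 2 each, and Ido1 and Aadat on 1 each.

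The other 5 genes were detected. Haao, the dioxygenase of the NAD branch, both probes of Kyat1 and the first probe of Kyat3 were well above background on all 24 arrays. The first probe of Kmo, the kynurenine hydroxylase, passed on 11 Ctrl NR and 12 No NR arrays, missing in Ctrl NR mouse 115. Afmid, the formamidase, passed on 8 Ctrl NR and 11 No NR arrays, a difference that was not called (Fisher's exact test, 2-sided, p = 0.317, adjusted p = 1). The 5 mice in which it missed were Ctrl NR 75, 95, 97 and 115 and No NR 118. The arrays of 115, 118 and 95 had the lowest shares of Cy5 spots well above background (34.5%, 36.8% and 38.4%). Those of 75 and 97 had 46.2% and 42.4%. The part of array brightness in these misses was not tested. The share of arrays with a detected probe differed between diets at an adjusted p under 0.05 for 0% of 14853 probes detected on 1 to 23 arrays, and for 0 of the 4 member probes among them. The second probes of Kmo and Kyat3 were dim: they passed on 2 arrays each in Cy5, against 18 and 21 arrays in the pool. The measured steps were therefore those after the opening of the ring, and between kynurenine and quinolinate the route was measured at Kmo and Haao but not at Kynu.

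**Figure D1:**
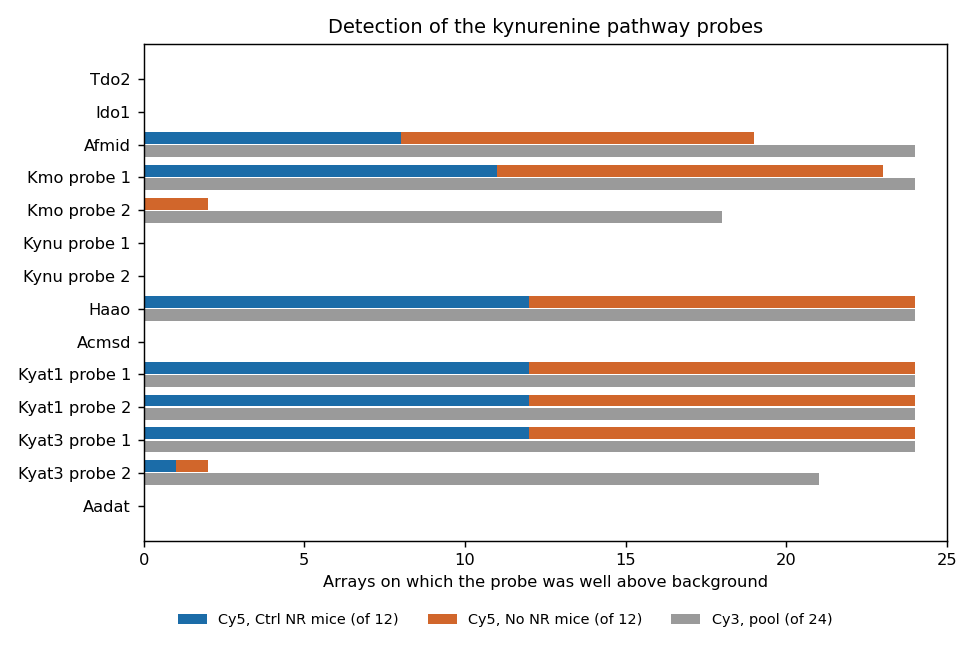
Number of arrays (x axis, of 24) on which each of the 14 probes (y axis) was well above local background; the upper bar of a probe is Cy5, split by diet (Ctrl NR, then No NR), and the lower bar is the Cy3 pool. Tdo2, Ido1, both Kynu probes, Acmsd and Aadat have no bar, and Haao, both Kyat1 probes and the first Kyat3 probe reach 24.

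The central question of the design is whether 18 weeks without NR changed the transcripts of the fat pad. No member passed the test. Over all 21051 features tested together, 0% had an adjusted p under 0.05 (limma, Benjamini-Hochberg), and 14.1% had an unadjusted p under 0.05, against 0 of the 5 measured members. The 0 over all features depended on single mice: 227 features were called without Ctrl NR mouse 68, 220 without 117, 80 without 104, 34 without 75 and 9 without 77, and 3 without No NR mouse 78 and 2 without 118. No member was among them. Of the 5 measured members, 1 was higher and 4 were lower in No NR, with a median difference of -0.07, while 52.4% of all features were lower and 47.6% higher, with a median of -0.01. The labels do not say whether the mice were litter mates, and no number pairs the 2 diets. In RNA of a whole fat pad, fewer cells of a type and less RNA per cell cannot be told apart.

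Afmid is the only enzyme of the kynurenine-forming steps that could be measured. Its log2 ratio ran from -0.27 in mouse 75 to 0.23 in mouse 88 in Ctrl NR, with a median of 0.03, and from -0.25 in mouse 78 to 0.40 in mouse 90 in No NR, with a median of 0.09. The ranges overlapped, with 5 No NR mice above the highest Ctrl NR mouse. The means were 0.02 ± 0.17 and 0.12 ± 0.22 (SD, n = 12 each), a difference of 0.11 (SE 0.0807, 95% interval -0.06 to 0.27, limma p = 0.198, adjusted p = 0.569). Within the 5 slides, each scanned as a batch, the difference ran from -0.23 to 0.36 and was positive on 3.

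Kmo draws kynurenine into the branch that leads to NAD. Its first probe ran from -0.28 in mouse 115 to 0.24 in mouse 64 in Ctrl NR, with a median of -0.03, and from -0.32 in mouse 98 to 0.32 in mouse 78 in No NR, with a median of -0.10. The diets overlapped nearly throughout, with 2 No NR mice below and 1 above the Ctrl NR range. The difference was -0.07 (SE 0.0747, 95% interval -0.23 to 0.08, limma p = 0.332, adjusted p = 0.676), from -0.21 to 0.12 within slides. The second, dim probe of Kmo varied with the first at r = 0.45 over the 24 mice.

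Haao makes the direct precursor of quinolinate. Its log2 ratio ran from -0.18 in mouse 115 to 0.71 in mouse 108 in Ctrl NR, with a median of 0.04, and from -0.26 in mouse 101 to 0.17 in mouse 81 in No NR, with a median of -0.04. Mouse 108 stood above all others, the next highest being at 0.31, and 10 of 12 No NR mice lay below the Ctrl NR median. The means were 0.10 ± 0.25 and -0.05 ± 0.11 (SD, n = 12 each). The difference of -0.15 (SE 0.0792, 95% interval -0.31 to 0.01, limma p = 0.0689, adjusted p = 0.393) was negative on all 5 slides, from -0.42 to -0.03. Without Ctrl NR mouse 108 it was -0.09 (limma p = 0.150, adjusted p = 0.519).

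Kyat1 and Kyat3 both transaminate kynurenine to kynurenic acid and also act on other amino acids. The first probe of Kyat1 was below the pool in all 24 mice, from -0.58 to -0.08 in Ctrl NR (median -0.37) and from -0.58 to -0.15 in No NR (median -0.37). The second probe was higher against the pool, from -0.46 to 0.56 and from -0.25 to 0.29, so the position of Kyat1 relative to the pool depended on the probe. The diet difference was near 0 in both: -0.03 (SE 0.0679, 95% interval -0.17 to 0.11, limma p = 0.653, adjusted p = 0.863) and -0.01 (95% interval -0.20 to 0.17, limma adjusted p = 0.957). Within slides it ran from -0.23 to 0.13 for the first probe and from -0.52 to 0.30 for the second. Each was negative on 3 of 5 slides. No mouse of No NR lay outside the Ctrl NR range in either probe.

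Kyat3 had the largest diet difference of the 5, and also the widest spread of log2 ratios. It ran from -0.59 in mouse 88 to 0.74 in mouse 115 in Ctrl NR, with a median of 0.03, and from -0.62 in mouse 81 to 0.44 in mouse 78 in No NR, with a median of -0.27. The ranges overlapped almost entirely, with 1 No NR mouse below the Ctrl NR range and none above it. The means were 0.04 ± 0.42 and -0.20 ± 0.32 (SD, n = 12 each), a difference of -0.25 (SE 0.143, 95% interval -0.54 to 0.05, limma p = 0.0946, adjusted p = 0.439). It was negative on 4 of 5 slides, from -0.71 to 0.09.

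**Figure D2:**
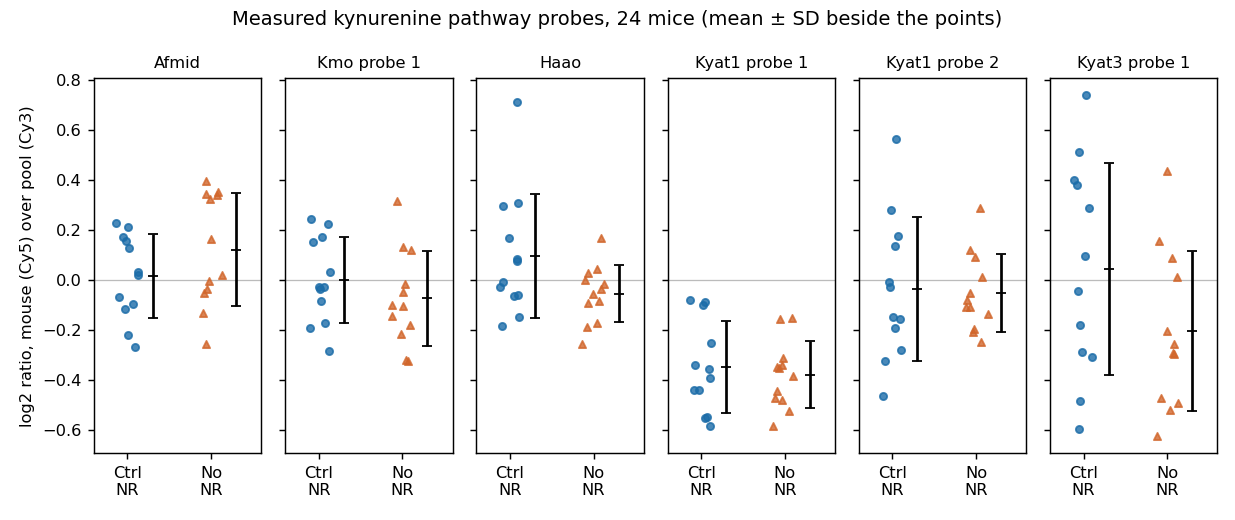
Log2 ratio of mouse over pool (y axis) for the 6 measured probes; each point is 1 mouse, circles are Ctrl NR and triangles No NR (12 each), and the bar beside the points is mean ± SD. The diets overlap in every panel, Ctrl NR mouse 108 stands apart in Haao at 0.71, and Kyat3 spans -0.62 to 0.74.

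The level of macrophage markers differed between the mice, and the levels of Kyat3, Haao and Afmid moved with it. The mean log2 ratio of the 27 measured macrophage markers ran from -1.60 to 0.64 in Ctrl NR and from -1.01 to 0.55 in No NR. Of the 27, 26 were higher in No NR, where 47.6% of all features were, none at an adjusted p under 0.05 (limma), with 3 at an unadjusted p under 0.05. Other lists also shifted with no marker called: 3 of 14 endothelial markers were higher, with 6 of the 14 at an unadjusted limma p under 0.05. Of the 5 measured B and plasma cell markers, 0 were higher, with 2 at such a p. Only the macrophage mean was used as a term in the fit of the diets. With it, the difference was -0.12 for Kyat3 (limma p = 0.183, adjusted p = 0.546) and -0.20 for Haao (limma p = 0.00952, adjusted p = 0.194).

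**Figure D3:**
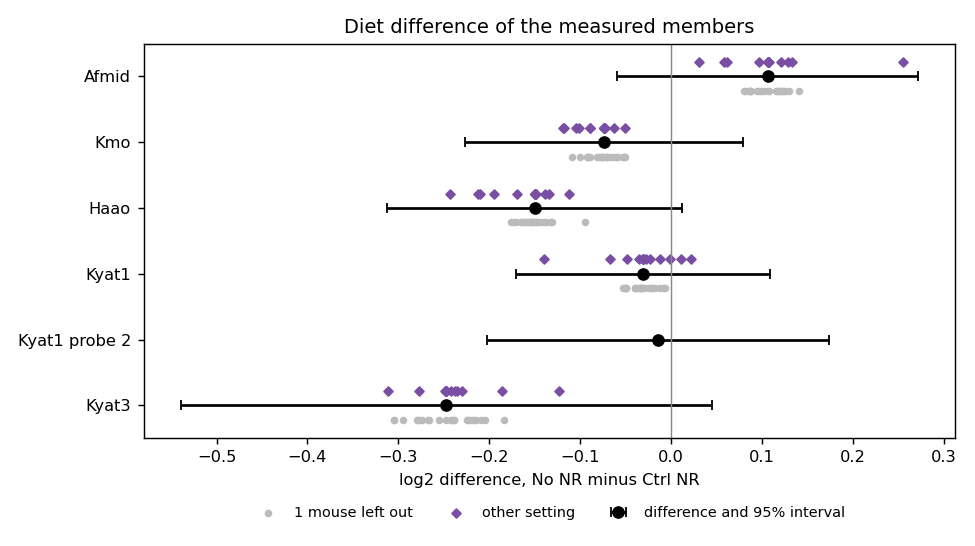
Log2 difference No NR minus Ctrl NR (x axis) of each measured member; black points are the fitted difference with its 95% interval, grey points below leave out 1 mouse each, and diamonds above are the other settings. Every interval includes 0; the values of Afmid stay above 0 and those of Kmo, Haao and Kyat3 below 0 in every setting drawn, while those of Kyat1 fall on both sides.

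The spread of log2 ratios between mice separated Kyat3 from the other members. Its log2 ratio had an SD of 0.39, which is at the 92.3rd percentile of all features, while the SDs of Afmid (0.20), Kmo (0.18), Haao (0.20) and the first probe of Kyat1 (0.16) lay between the 19.2nd and the 51.1st percentile. The second probe of Kyat1 had an SD of 0.23, at the 61.9th percentile. The pool is the same RNA on every array, so its SD shows what arrays add in the Cy3 channel. The Cy5 signal was dimmer, with a median over background of 368.75 units for Kyat3 against 932.75 in Cy3. What arrays and labelling add in Cy5 was not measured, so the ratio of the SDs does not isolate differences between mice. For Kyat3 the SD of the scaled log2 Cy5 signal was 0.43 across mice and that of the Cy3 pool 0.0656, a ratio of 6.56, against a median ratio of 2.48 over all features. For Haao the SDs were 0.49 and 0.32, a ratio of 1.53. The pool itself thus spread widely between arrays for Haao and little for Kyat3. For Afmid the SDs were 0.62 and 0.18, a ratio of 3.48. In the scaled Cy5 signal Afmid and Haao therefore spread more than Kyat3. The log2 ratios of dim probes such as that of Afmid are shrunk by the offset of the background correction. The dim second probe of Kyat3 did not follow the first (r = -0.22), so the results on Kyat3 rest on 1 probe.

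Among the 15 pairs of the 6 measured probes, 2 pairs of different genes were called by Pearson's r across mice with diet means removed. The share of pairs called among all features was not computed, so this count has nothing to be set against. Haao and Kyat3 ran in opposite directions (r = -0.69, rho = -0.64, permutation p = 0.00031 and 0.00172, adjusted over the 15 pairs 0.00232 and 0.0129). Within each diet r was also negative (-0.80 in Ctrl NR, and weaker at -0.45 in No NR). With slide removed r was -0.70, and with the 2 mice most distant from the median left out it was -0.63. These values were not tested, so the relation is not shown for either diet alone. Haao and the first probe of Kyat1 rose together (r = 0.56, permutation p = 0.00757, adjusted 0.038), though by rank the relation missed the threshold (rho = 0.50, adjusted permutation p = 0.0856). Both were highest in Ctrl NR mouse 108. Their r was 0.65 in Ctrl NR, 0.34 in No NR and 0.48 without the 2 mice most distant from the Haao median, values that were not tested. With the second probe of Kyat1, the relation of Haao was not called (r = 0.45, permutation p = 0.065, adjusted 0.195). The 2 probes of Kyat1 followed each other (r = 0.72, rho = 0.80, permutation p = 0.00021 and 3e-05, adjusted 0.00232 and 0.00045). No relation of Kmo to another member was called: its r lay between -0.15 and 0.20. Within Ctrl NR and No NR its r was -0.47 and 0.56 with Kyat3, and 0.49 and -0.31 with Haao. With the first probe of Kyat1 it was 0.40 and -0.31, and with Afmid -0.11 and -0.17. These within-diet values were not tested. Afmid and Kyat3 had r = -0.43 (permutation p = 0.0309, adjusted 0.116).

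The measured members were next related to the macrophage and the adipocyte list means across the 24 mice, in a fit with diet and the list mean as terms (10 relations, p-values adjusted over all features). Against the macrophage mean, 3 of 5 members were called, where 26.3% of all features were. Kyat3 fell by 0.44 (SE 0.0673) per unit of the macrophage mean (limma adjusted p = 6.8e-06, r = -0.81, rho = -0.79). The permutation p was 1e-05 for both r and rho, the floor to which the lowest values from 100000 resamples were set. Ctrl NR mouse 115, with the lowest macrophage mean of -1.60, had the highest Kyat3, and Ctrl NR mouse 88, with the highest of 0.64, had the second lowest. No NR mouse 118 was the exception, with Kyat3 at -0.49 at a macrophage mean of -1.01, and without it r was -0.90. Haao rose with the macrophage mean (r = 0.57, rho = 0.64, permutation p = 0.00544 and 0.00164, limma adjusted p = 0.0219), and so did Afmid (r = 0.55, rho = 0.55, permutation p = 0.00561 and 0.00449, limma adjusted p = 0.0269). With slide removed as well as diet, Haao was not called (r = 0.53, limma adjusted p = 0.0583), while Kyat3 and Afmid were. Rising with the macrophage mean was called for 16.2% of all features and falling with it for 10.2%.

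Kmo, an enzyme known from macrophages and microglia, was not called (r = 0.20, rho = 0.20, permutation p = 0.340 and 0.361, limma adjusted p = 0.551), and neither was Kyat1 (r = 0.27, rho = 0.21, permutation p = 0.222 and 0.349, limma adjusted p = 0.403). The 2 mice most distant from the median of the macrophage mean were Ctrl NR 115 and 95, also among the arrays with the fewest detected spots. With both left out, r was -0.74 for Kyat3, 0.72 for Afmid and 0.43 for Haao, the last no longer called (limma adjusted p = 0.137). The call of Haao was also lost without Ctrl NR mouse 115 (adjusted p = 0.0562), and that of Afmid without any 1 of mouse 75 or 88 of Ctrl NR or 78 or 90 of No NR (adjusted p = 0.0510 to 0.0648). With each array centred on its median in place of the loess fit, 82.7% of all features were called against the macrophage mean, and the r of Kyat3 turned to 0.35 (adjusted p = 0.0912). With the Cy5 channel alone, the processed signals and the authors' deposited values it was -0.85, -0.83 and -0.85. Haao was not called with the Cy5 channel alone (r = 0.37, limma adjusted p = 0.191) or in the deposited values (r = 0.33, limma adjusted p = 0.226). Afmid was called in Cy5 alone (r = 0.62) but not in the deposited values (r = 0.16, limma adjusted p = 0.556).

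The relation was not equally tight in the 2 diets, though the difference was not tested. For Kyat3 r was -0.94 in Ctrl NR and -0.58 in No NR, where it was not called (limma adjusted p = 0.0668). Afmid was the member called within No NR (r = 0.69, limma adjusted p = 0.0364), and Kyat3 the one within Ctrl NR. In No NR the macrophage mean fell into 4 mice at or below -0.82 and 8 at or above 0.01, and within those 8 mice r was -0.46 for Kyat3, 0.15 for Haao and 0.39 for Afmid. In the same 8 mice Kyat1 had r = -0.91 (rho = -0.81). That value was noticed only on inspection and is given without a test, and over all 12 No NR mice its r was -0.01.

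**Figure D4:**
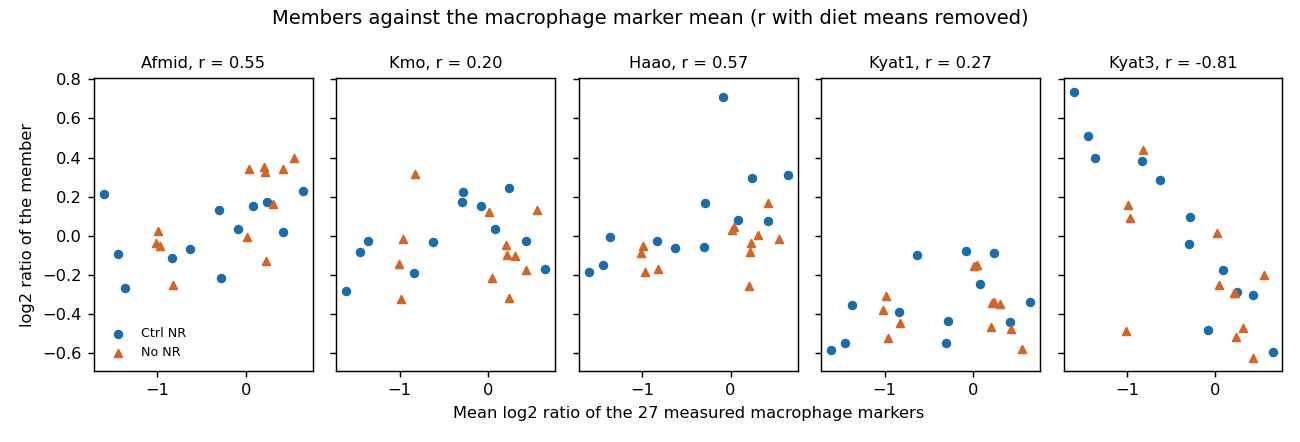
Log2 ratio of each measured member (y axis, brightest probe) against the mean log2 ratio of the 27 measured macrophage markers (x axis); circles are Ctrl NR and triangles No NR mice, and r is Pearson's r with diet means removed. Kyat3 falls from left to right (r = -0.81), Haao and Afmid rise (0.57 and 0.55), and Kmo and Kyat1 show no clear slope (0.20 and 0.27).

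Against the adipocyte mean the signs were opposite, and again 3 of 5 members were called, where 26.7% of all features were (10.8% rising, 15.9% falling). Kyat3 rose with it (r = 0.79, rho = 0.79, permutation p = 3e-05 and 4e-05, limma adjusted p = 1.74e-05). Afmid fell (r = -0.62, rho = -0.61, permutation p = 0.00209 and 0.00197, limma adjusted p = 0.00926), as did Haao (r = -0.60, rho = -0.68, permutation p = 0.00099 and 0.00044, limma adjusted p = 0.0121). Kmo (r = -0.09, permutation p = 0.679) and Kyat1 (r = -0.25, permutation p = 0.251) were not called. With the 2 mice most distant from the median left out, r was 0.90 for Kyat3, -0.57 for Afmid and -0.60 for Haao. Within No NR Kyat3 was not called (r = 0.60, limma adjusted p = 0.0590). In the deposited values neither Afmid (r = -0.35, limma adjusted p = 0.172) nor Haao (r = -0.44, limma adjusted p = 0.108) was called. Centred on array medians, 85.0% of all features were called against the adipocyte mean, and r was positive for all 5 members. It was 0.96 for Kyat3, 0.17 for Afmid, 0.60 for Haao, 0.71 for Kmo and 0.80 for Kyat1. With nearly all features called, the kept sign of Kyat3 says little about this gene.

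Other cell types gave further values, described here with no test. The neutrophil and mast cell list was related to Kyat3 about as closely as the macrophage list (r = -0.85), and the stromal progenitor list had r = -0.73. Afmid had its strongest value with the endothelial list (r = -0.75; -0.90 in No NR and -0.59 in Ctrl NR). Haao had r = 0.64 with the stromal progenitor list. Kmo had its highest value with the dendritic cell list (r = 0.52; 0.73 in Ctrl NR and 0.28 in No NR), and Kyat1 its largest with the B and plasma cell list (r = -0.56). The lists share mice and libraries and move together, so these values do not separate 1 cell type from another. Markers of liver and kidney, organs known for this pathway, were in part undetected: 6 of 14 hepatocyte markers (Apoa1, Apob, Ttr, Fgb, Cps1 and F2) and 5 of 10 proximal tubule markers were above background on no array. Of the hepatocyte markers 5 were measured, 3 of them on all 24 arrays, and of the tubule markers 3 and 2. The mean of the 5 measured hepatocyte markers had r = 0.71 with Kyat3, -0.62 with Haao and -0.56 with Afmid.

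**Figure D5:**
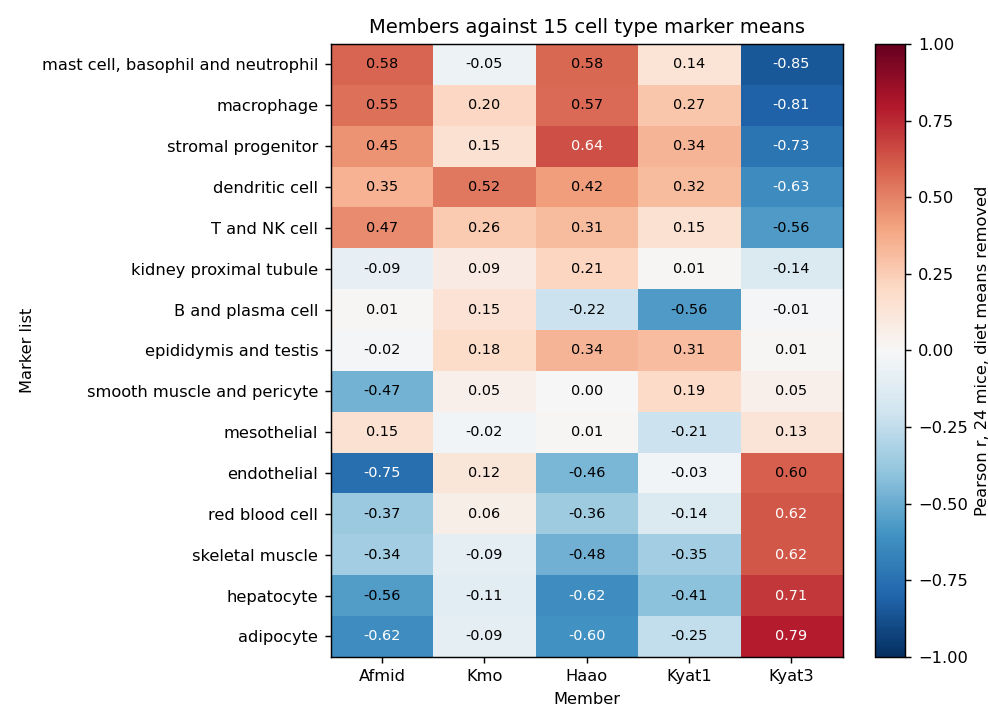
Pearson's r over 24 mice, diet means removed, between each measured member (x axis) and the mean of each of 15 cell type marker lists (y axis), ordered by the value for Kyat3; colour runs from -1 (blue) to 1 (red). Kyat3 runs from -0.85 to 0.79, Afmid reaches -0.75 with the endothelial list, and Kmo exceeds 0.3 only with the dendritic cell list (0.52). The mean is that of the measured markers: the skeletal muscle row rests on 1 marker of 8 and the kidney row on 3 of 10.

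For each measured member, the 3 named genes with the most similar log2 ratios over the 24 mice were found among 12348 candidates, with diet means removed. Those of Kyat3 were Myl1, a myosin light chain (r = 0.92), Kcns3, a potassium channel subunit (r = 0.91), and Pxmp2, a peroxisomal membrane channel (r = 0.91), each within 0.81 to 0.97 in either diet. Like Kyat3, these 3 fell with the macrophage mean (r = -0.80, -0.85 and -0.84). The genes most like Haao were Ttc16 (r = 0.87), Sct, the hormone secretin (r = 0.86), and Ngef, an exchange factor (r = 0.85). All 3 were, like Haao, highest in Ctrl NR mouse 108, and without that mouse r was 0.74, 0.70 and 0.67. Mouse 108 also had the highest mean of the epididymis and testis list, 2.00 against a next highest of 1.22 in mouse 77, whose Haao was at -0.03. Of that list 5 of 13 markers were measured, 1 of them on all 24 arrays. Its r with Haao was 0.34 (0.53 in Ctrl NR, -0.33 in No NR). The part of this in the value of Haao was not tested.

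The genes most like Afmid were Fanca, of DNA cross-link repair (r = 0.77), Gins1, of the replicative helicase (r = 0.75), and Aspm, a mitotic spindle protein (r = 0.74). Like Afmid, these 3 rose with the macrophage mean (r = 0.53, 0.73 and 0.85). Tk1, looked up because of its start site beside that of Afmid and after these 3 were known, had r = 0.61 (rho = 0.57; 0.60 in Ctrl NR and 0.65 in No NR). That placed it 325th among the 12348 candidates. Tk1 itself had r = 0.90 with the macrophage mean and a diet difference of 0.28 (SE 0.238, limma adjusted p = 0.618). The genes most like Kmo were Tspan32, a tetraspanin of blood cells (r = 0.73), Slc13a3, a dicarboxylate transporter (r = 0.71), and Fcrls, an Fc receptor-like gene of myeloid cells (r = 0.65). Those of Kyat1 were Tpi1, of glycolysis (r = 0.73), Sar1a, of vesicle budding (r = 0.73), and Nudt14, a nucleotide-sugar hydrolase (r = 0.71).

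The genes around the pathway were read in the same fit. Of 55 genes in 8 lists, 45 were measured, 12 higher and 33 lower in No NR, where 52.4% of all features were lower. None was called, and 8 had an unadjusted p under 0.05 (limma), 2 higher and 6 lower, where 14.1% of all features had one. Of the enzymes beside the route, 5 of 6 were measured, and Gcdh, which acts further down the glutarate branch, was lower by value (difference -0.22, SE 0.0814, limma adjusted p = 0.221). Aldh8a1, which oxidises the product of Acmsd, differed by -0.13 (adjusted limma p = 0.444), and Qprt, which takes quinolinate into the NAD route, by 0.09 (adjusted limma p = 0.643). Among the last steps to NAD, Nmnat1 (-0.09) and Nmnat3 (0.08) differed by less than 2 of their SEs (0.0624 and 0.105), Nadsyn1 differed by less than 0.01, and Nmnat2 was not detected.

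KMO needs FAD and the aminotransferases and KYNU need vitamin B6. All 5 genes of these cofactors were measured and all 5 had a negative difference, with Rfk, the riboflavin kinase, at -0.19 (SE 0.0734, limma adjusted p = 0.236) and Pdxp, which dephosphorylates the active vitamin B6, at -0.23 (SE 0.0995, limma adjusted p = 0.292). Of 6 transporters of tryptophan or kynurenine, 4 were measured and all had a negative difference. Slc7a8, a large neutral amino acid transporter, had the lowest p of all 45 context genes, with a mean of 0.06 ± 0.24 in Ctrl NR and -0.23 ± 0.19 in No NR (SD, n = 12 each; difference -0.29, SE 0.0872, limma adjusted p = 0.140), and Slc3a2, the partner chain of such transporters, differed by -0.12 (adjusted limma p = 0.480).

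Among competing uses of tryptophan and its amines, Maoa, a monoamine oxidase, differed by -0.26 (SE 0.0864, limma adjusted p = 0.184) and Tph2, a tryptophan hydroxylase of serotonin synthesis, by 0.53 with an SE of 0.293 (limma adjusted p = 0.412). Of the receptors and their readout, 6 of 8 were measured and 0 had an unadjusted p under 0.05 (limma). Ahr, the receptor that kynurenine can activate, differed by -0.03, and its targets Tiparp by -0.17 and Cyp1b1 by 0.19 (adjusted limma p = 0.471 and 0.636). Of the genes listed for interferon gamma signalling, the inducer of Ido1, 9 of 11 were measured: Jak1 differed by 0.29 (SE 0.103, limma adjusted p = 0.212) and Jak2 by -0.11 (SE 0.0536, limma adjusted p = 0.337), and Irf1 by -0.08. The Ifng probe was detected on 2 Ctrl NR and 4 No NR arrays. Of the glucocorticoid-responsive genes, which stand in for the inducer of Tdo2, all 7 were measured: Sgk1 differed by 0.31 (SE 0.142, limma adjusted p = 0.325), Nr3c1, the receptor, by -0.13 (adjusted limma p = 0.700), and the other 5 by -0.09 to -0.04.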

How the data were processed

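The members and lists were chosen with earlier results of these data known. The deposited files give a linear intensity and yes-or-no flags for each spot, and per the submitters' processing notes Agilent Feature Extraction 10.7.3.1 was used. The authors' value table holds log2 values that tracked the log2 Cy5 signal of the array they belong to (lowest r 0.99), and every column median was 8.04; its normalization is not given in the sources used here.

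Median signals were background-corrected with normexp (offset 50, which shrinks the ratios of dim probes) and normalized within arrays by loess in limma 3.58.1 under R 4.3.3. Spots of a probe were averaged, outlier spots left out, and probes entered the tests if flagged as well above background in Cy5 on 6 or more of the 12 arrays of 1 diet (24769 of 55681). Names came from RefSeq (GRCm38.p6): 27235 probes matched 1 symbol and 28446 none. A gene was its brightest kept probe. The headers name the build mm9, so no gene coordinates are given, only those of the promoter table. All arrays had the same dye orientation. Diets were compared with limma (diet only, Benjamini-Hochberg over 21051 features, threshold 0.05), checked on simulated data. Permutations (100000, 2-sided) ran within diets. Besides all members, the text names context genes at an unadjusted p under 0.05 or the 2 lowest of a list, and the 3 genes most like each member; Qprt, Nadsyn1, Ahr, Irf1, Tk1 and undetected genes were added after their values were seen. Slides held 2, 2, 2, 4 and 2 Ctrl NR and 1, 3, 3, 2 and 3 No NR mice. No 2 arrays held identical values. A result on 1 context gene that is withheld is not reported here.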

Additional observations from a re-analysis of the deposited data

How the results depend on the processing

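No paired analysis was possible because the animal numbers of the 2 diets differ and nothing else pairs the mice. The counts of members and of context genes called between diets were 0 under all 38 alternatives, 24 of which leave out 1 mouse. Features called in all were 72 with the macrophage mean as a term, 275 with array weights and, leaving out 1 mouse, 2 to 227 for 7 of the 24 mice, and 0 under the others. Under the 38 alternatives the differences ranged from -0.31 to -0.12 for Kyat3, -0.24 to -0.09 for Haao, -0.12 to -0.05 for Kmo and, over 37 (the stricter filter on dim probes removed it), 0.03 to 0.25 for Afmid. Kyat1 changed sign to 0.011 with the processed signals and to 0.022 with array weights. Haao had an unadjusted p under 0.05 (limma) under 6 alternatives and Kyat3 under 4.

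The relations to the list means depended more on the setting; the cause was not tested. Of the 5 members, 1 was called against the macrophage mean in the authors' deposited values and within Ctrl NR (Kyat3) and within No NR (Afmid), and 2 (Kyat3 and Afmid) in Cy5 alone, with diet and slide removed and without the 2 most distant mice. Against the adipocyte mean 1 was called in the deposited values (Kyat3) and within No NR (Afmid), and 2 within Ctrl NR (Kyat3 and Haao) and in the processed signals (Kyat3 and Afmid). With median centring r turned to 0.35 for Kyat3 against the macrophage mean, Kmo (0.70) and Kyat1 (0.83) were called with it, and against the adipocyte mean to 0.17 for Afmid, 0.71 for Kmo, 0.60 for Haao and 0.80 for Kyat1. Uncalled relations also changed sign: for Kmo with the macrophage mean, r was -0.14 in the deposited values and -0.046 within No NR, and with the adipocyte mean 0.0029 in the processed signals, 0.16 in the deposited values and 0.15 within No NR. For Kyat1, r was -0.0061 with the macrophage mean within No NR, and with the adipocyte mean 0.15 in Cy5 alone and 0.052 within No NR. Leaving out single mice, chosen after seeing the data for the relations, left 2 to 3 members called against the macrophage mean and 3 against the adipocyte mean, with r of Kmo against the adipocyte mean between -0.25 and 0.0034. Signals near background limit Afmid, Kmo and the 5 undetected genes.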
